A study of Mus musculus with 12 samples.

Results

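Wild-type mouse livers of the 2 sexes were compared gene by gene, in 3 male and 3 female libraries out of 12. The members are the autosomal genes with at least 1 FPKM (fragments scaled to transcript length and library size) in at least 3 of the 12 libraries, 11163 of the 17824 autosomal genes and of the 18560 genes in the table. X- and Y-linked genes were left out, and 6661 autosomal genes lay under the filter. All mice were aged 12 months, and liver was the tissue in every library. The 6 libraries compared carry the genotype label WT and differ in sex as labelled. The other 6 libraries, 3 male and 3 female, come from mice labelled OXR1A-/-, which lack OXR1A, a protein isoform of the oxidation resistance gene Oxr1. They entered the fit to help estimate the spread and served as a second M against F comparison on separate samples. The sources used here give no strain, treatment, feeding or time of day at collection. Whether the 3 samples of a group come from separate animals is not labelled, and the p-values then rest on a spread that may be partly technical.

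Rodent liver is among the organs in which the sexes differ most in gene activity outside the gonads. Growth hormone is released from the pituitary in separate pulses in males and more evenly in females, and hepatocytes read that pattern through the growth hormone receptor, the kinase JAK2 and the transcription factor STAT5B. Repressors such as BCL6 in males and CUX2 in females help to hold the 2 programmes apart. The genes under this control make urinary pheromone carriers, cytochromes P450, sulfotransferases and transporters, so that steroids, bile acids and drugs are handled differently by the sexes.

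Of the 11163 genes, 124 were higher in males and 256 were higher in females by more than 1 on the log2(FPKM + 1) scale and passed limma at an adjusted p under 0.05, termed called below. These make 1.11% and 2.29% of the genes tested. With no minimum size, 1483 genes (13.3%) were called, 255 higher in males (2.28%) and 1228 higher in females (11.0%). The median difference of all genes, M minus F, was -0.21 log2, and calls in either direction are given beside this shift of the whole scale. With median-ratio scaling, which set that median to -0.0008, the split was 536 higher in males (4.8%) and 493 higher in females (4.42%). With that scaling 170 and 145 genes differed by more than 1 log2. Of the large differences, 123 of the 124 and 212 of the 256 were called the same way with that scaling, and 100 and 185 stayed called whichever 1 of the 12 libraries was left out. The 3 male and 3 female values did not overlap in 124 of the 124 and in 253 of the 256, against 40.1% of all genes tested. These genes were chosen for a large difference in the same libraries, so their lack of overlap describes that choice and adds no evidence.

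Among these genes, the highest levels were those of some male genes. The median level was 29.5 FPKM in males for the 124 male genes and 13.7 FPKM in females for the 256 female genes. The 124 genes made 9.48% to 10.7% of all FPKM in the male libraries and 1.08% to 1.27% in the female libraries. The 256 female genes made 3.05% to 3.80% in females and 0.470% to 0.622% in males. A mean of at least 1000 FPKM in the higher sex was reached by 12 of the 124 male genes and by 2 of the 256 female genes. Differences over 3 log2 were found in 22 and 35 genes, and 116 of the 124 and 248 of the 256 code for protein. Next to the limit of 1 log2 stood Gde1 at 1.003 and Insc at 0.998 on the male side, and Slc7a8 at -1.002 and Bche at -0.999 on the female side, with Gde1 and Slc7a8 inside.

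**Figure D1:**
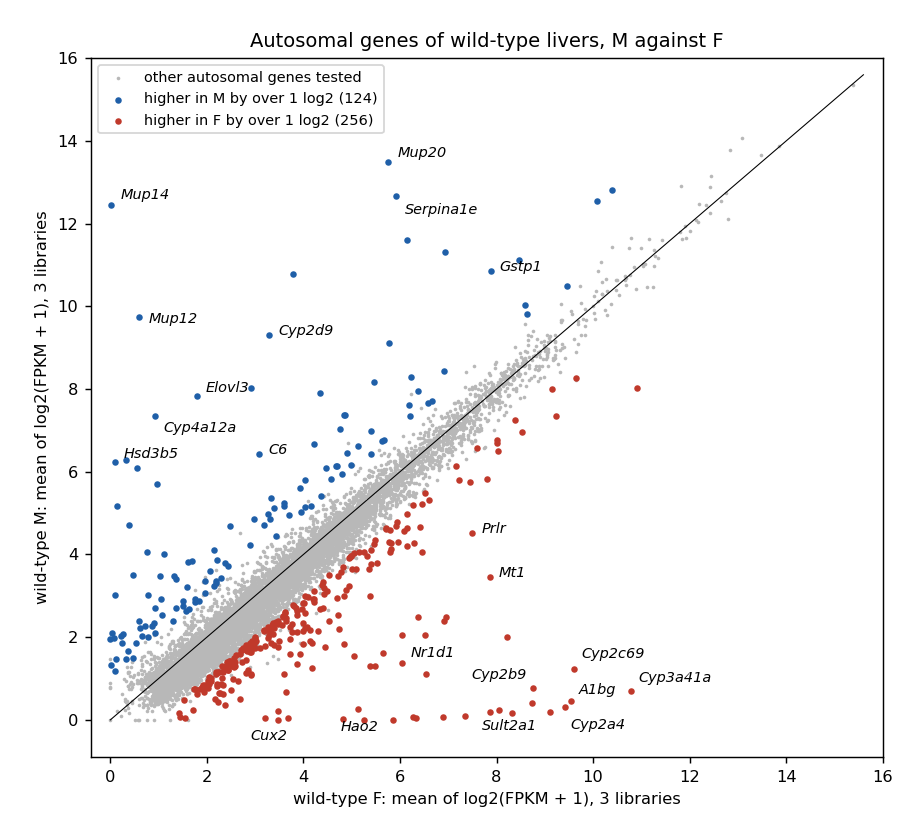
Mean log2(FPKM + 1) of each autosomal gene in the 3 wild-type female libraries (x axis) and the 3 wild-type male libraries (y axis), with 1 point per gene and the line of equal values. Some of the 124 genes higher in males (blue) reach far higher levels than most of the 256 genes higher in females (red). Mup20 and Mup14 lie at the top left. Of the 256 genes, 53 have a mean under 1 FPKM in males, and of the 124 genes, 33 have such a mean in females.

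Promoter sequences are shown for the genes with the largest differences. The 250 bases before the start listed by RefSeq (build GRCm38.p6) are given 5′ to 3′ on the strand of the gene for the first 3 genes in each direction that have an entry. Capitals mark TTCNNNGAA, the pattern bound by STAT5 dimers, and ATTGAT or its reverse complement ATCAAT, the core bound by HNF6 and by the CUX proteins. The 2 patterns do not overlap in these stretches. The male-biased genes are Mup14 (chr4:61303999-61304248, minus strand) and Mup11 (chr4:60662396-60662645, minus strand), which code for major urinary proteins, and Serpina1e (chr12:103956898-103957147, minus strand), which codes for a protease inhibitor of the alpha-1-antitrypsin family.
Mup14: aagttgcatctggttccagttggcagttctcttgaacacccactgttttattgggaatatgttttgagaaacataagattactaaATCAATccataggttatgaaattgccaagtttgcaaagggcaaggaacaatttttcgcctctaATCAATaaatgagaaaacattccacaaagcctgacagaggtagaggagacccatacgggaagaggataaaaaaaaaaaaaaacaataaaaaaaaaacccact
Mup11: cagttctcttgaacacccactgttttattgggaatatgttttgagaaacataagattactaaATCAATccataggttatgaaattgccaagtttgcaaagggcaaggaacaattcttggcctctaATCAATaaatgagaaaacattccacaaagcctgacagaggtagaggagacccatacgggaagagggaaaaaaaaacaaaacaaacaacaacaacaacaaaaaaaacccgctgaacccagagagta
Serpina1e: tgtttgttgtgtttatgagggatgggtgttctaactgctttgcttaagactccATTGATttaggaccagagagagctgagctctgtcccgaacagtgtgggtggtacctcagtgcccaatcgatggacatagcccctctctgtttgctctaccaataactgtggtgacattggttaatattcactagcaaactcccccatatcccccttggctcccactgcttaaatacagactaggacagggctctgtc
The female-biased genes are Cyp3a41a (chr5:145720137-145720386, minus strand) and Cyp2a4 (chr7:26306942-26307191, plus strand), which code for steroid-oxidising cytochromes P450, and A1bg (chr15:60921271-60921520, minus strand), which codes for a plasma glycoprotein.
Cyp3a41a: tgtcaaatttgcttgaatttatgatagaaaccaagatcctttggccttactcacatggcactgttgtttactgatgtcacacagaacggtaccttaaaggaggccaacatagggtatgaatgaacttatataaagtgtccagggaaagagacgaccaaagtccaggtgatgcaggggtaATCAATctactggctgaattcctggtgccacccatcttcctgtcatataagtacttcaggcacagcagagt
Cyp2a4: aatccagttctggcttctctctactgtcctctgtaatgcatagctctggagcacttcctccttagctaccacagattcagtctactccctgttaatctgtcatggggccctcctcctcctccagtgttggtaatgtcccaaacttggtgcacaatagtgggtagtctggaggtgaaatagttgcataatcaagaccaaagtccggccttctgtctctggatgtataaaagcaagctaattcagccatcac
A1bg: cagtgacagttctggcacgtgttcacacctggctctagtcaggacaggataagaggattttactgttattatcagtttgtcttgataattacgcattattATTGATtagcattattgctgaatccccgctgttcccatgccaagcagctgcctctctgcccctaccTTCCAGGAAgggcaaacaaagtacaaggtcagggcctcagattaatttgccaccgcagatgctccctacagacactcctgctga
Mup14 and Mup11 each hold ATCAAT at 2 places, 165 and 102 bases before the start in Mup14 and 188 and 125 in Mup11. Serpina1e holds ATTGAT 197 bases before the start, Cyp3a41a holds ATCAAT at 71 bases, and Cyp2a4 holds neither pattern. A1bg holds ATTGAT at 150 bases and TTCCAGGAA, a match to TTCNNNGAA, at 84. Over windows of 300 bases (250 before to 50 after the start), searched on both strands, ATTGAT was found in 10 of 95 male-biased (10.5%) and 19 of 189 female-biased genes (10.1%) with a promoter in the table. It was found in 4.29% of the 8880 tested genes with a promoter and in 7.72% of all 27024 genes with a RefSeq promoter. TTCNNNGAA was found in 5.26% of the male-biased and 4.23% of the female-biased genes. It was in 7.06% of these tested genes and in 8.42% of all genes with a RefSeq promoter. A match describes the letters and is not a bound site, and its absence says only that these letters are not in the window.

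Major urinary proteins, the lipocalins that carry pheromones into urine, gave the largest male differences. Mup14 stood at 4313, 9041 and 4545 FPKM in males 1 to 3 and was listed at 0, 0.05 and 0 in females (log2 difference 12.43, SE 1.37, adjusted p = 0.000182). No fold is given against values at 0. Mup20, the male pheromone also known as darcin, stood at 9497, 14373 and 11129 FPKM in males and 99.1, 36.2 and 41.6 in females, 198-fold higher in males (log2 difference 7.73, SE 0.51, adjusted p = 4.65e-06). Every male library lay far above every female library for both genes, and male 2 was the highest of the males. Mup12 stood at 574, 1606 and 672 against 0, 0.45 and 1.42 FPKM, and Mup11 at 1767, 3329 and 924 against 8.71, 26.02 and 8.81. Mup11 was the least even of these genes among the males, and its call was lost when male 2 and female 1 were both left out (adjusted p = 0.0815). Mup7 was 46.3-fold and Mup21 40.7-fold higher in males.

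The Mup family did not move as 1 block. Of 21 tested members, 9 were called higher in males, 4 higher in females and 8 did not pass, with a median difference of 1.06 log2 (1.32 with median-ratio scaling, and the same 9 and 4 counts). The 4 female-biased members, named here because of their values, were Mup4, Mup5, Mup6 and Mup13. Mup13 stood at 1.92, 3.34 and 1.26 FPKM in males and 35.4, 70.3 and 48.2 in females, 23.6-fold higher in females (log2 difference -4.04, SE 0.60, adjusted p = 0.00163). The remaining 3 differed by -1.70 to -1.64 log2, and none of them passed 63.2 FPKM (Mup6, female 3) in any wild-type library. Mup genes lie in tandem on chromosome 4 with nearly the same sequence, and how reads shared by copies were divided is not stated in any source used here, so the values of single members are uncertain.

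The protease inhibitor Serpina1e stood at 6713, 6963 and 5863 FPKM in males and 66.1, 74.8 and 42.0 in females. It was 107-fold higher in males, with no overlap and little spread (log2 difference 6.75, SE 0.63, adjusted p = 4.67e-05). Serpina4-ps1, listed as a pseudogene of the same cluster on chromosome 12, stood at 202, 74.6 and 29.8 FPKM in males and at 0.07 to 0.60 in females. Serpina3k, the antichymotrypsin-like inhibitor, was 5.56-fold higher in males, at 5516 to 6348 FPKM against 975 to 1276 in females. Reads of the Serpina1 copies may also be divided between them.

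The leading male-biased cytochromes P450 were abundant in males. Cyp2d9, a steroid 16-alpha-hydroxylase, stood at 592, 624 and 686 FPKM in males and 20.5, 8.03 and 3.82 in females, a 58.9-fold difference (log2 difference 6.02, SE 0.62, adjusted p = 0.000102). Cyp4a12a, a fatty acid omega-hydroxylase that responds to androgen, stood at 239, 144 and 126 FPKM against 4.60, 0.13 and 0.07, 106-fold higher in males. Female 1 was the highest female library for both genes. Without it the difference was 6.59 log2 for Cyp2d9 and 7.22 for Cyp4a12a, against 6.02 and 6.44 with it. The neighbouring Cyp4a12b stood at 29.4, 41.9 and 35.1 FPKM in males and was listed at 0 in 2 of the 3 females.

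Other leading male genes act on steroids, fatty acids, amines and organic anions. Hsd3b5, a 3-ketosteroid reductase of male liver, stood at 80.6, 73.5 and 69.1 FPKM in males and at 0.09, 0.12 and 0 in females (log2 difference 6.14, SE 0.53, adjusted p = 2.68e-05). Elovl3, which lengthens very long chain fatty acids, stood at 214, 279 and 195 FPKM against 7.29, 1.43 and 1.04, a 70.5-fold difference. The males were even in both genes and the females were all far lower. Slco1a1, an uptake transporter for steroid conjugates and other anions, stood at 89.5, 52.9 and 64.1 FPKM against 0.29, 0.29 and 0.86. Nat8, a cysteine conjugate N-acetyltransferase, was 47.2-fold higher in males.

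**Figure D2:**
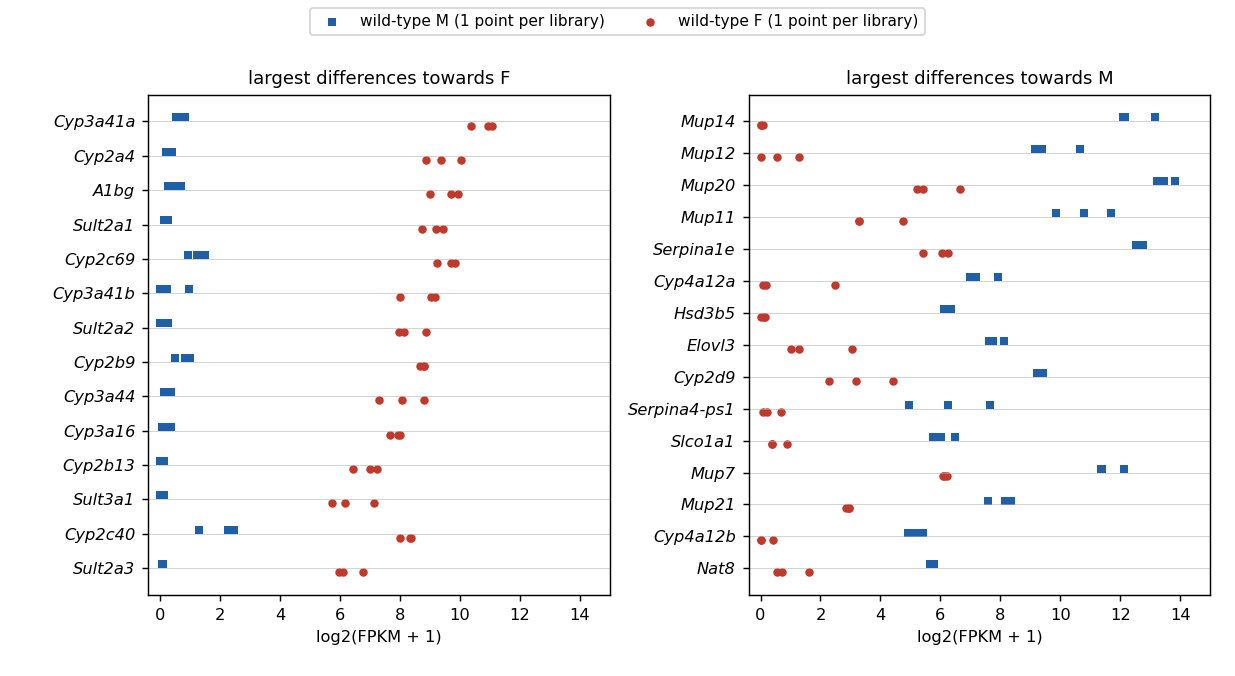
Values of log2(FPKM + 1) in each of the 6 wild-type libraries for genes among the 15 with the largest difference towards females (left) and towards males (right), with 1 square per male library and 1 circle per female library. Only genes whose values do not overlap between the sexes were eligible, and female 1 gives the highest female value of Cyp4a12a, Elovl3, Cyp2d9 and Nat8.

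The cytochromes P450 with the largest female differences were nearly silent in males. Cyp3a41a, a steroid hydroxylase of female liver, stood at 1309, 2120 and 1955 FPKM in females and at 0.44, 0.72 and 0.76 in males, 2804-fold higher in females (log2 difference -10.07, SE 1.25, adjusted p = 0.00046). Cyp2a4, a steroid 15-alpha-hydroxylase, stood at 655, 1036 and 464 FPKM in females and at 0.15, 0.26 and 0.32 in males. All male libraries were below 1 FPKM for both genes. Cyp2b9 stood at 401, 442 and 448 FPKM in females and at 1, 0.42 and 0.76 in males (log2 difference -7.98, SE 0.36, adjusted p = 5.1e-07). Cyp2c69 was 575-fold and Cyp2c40 92.1-fold higher in females, and Cyp3a41b, Cyp3a44, Cyp3a16 and Cyp2b13 were also among the 15 largest. A mean under 1 FPKM in males with at least 100 in females was seen in 11 genes, and the reverse in 3. Without the limit of 100 FPKM, the share with a mean under 1 FPKM in the lower sex was larger among male genes. It was 20.7% of the genes higher in females by over 1 log2 and 26.6% of those higher in males.

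Across the P450 families the sexes divided the members between them. Of 34 tested Cyp2 genes, 14 were called higher in females, 3 in males (Cyp2d9, Cyp2u1 and Cyp2c67, the last 2 named after their values were seen) and 17 did not pass. The call of Cyp2c67 was lost in 17 of the 24 alternatives, including without any 1 of the 6 wild-type libraries. The median was -0.19 log2, but 0.07 with median-ratio scaling, which gave 11 female and 9 male calls, so the direction of the family as a whole turns with the scaling. In the Cyp1, Cyp3 and Cyp4 genes, 7 of 22 were called higher in females and 3 in males (5 and 4 with median-ratio scaling). Cyp3a11, the most abundant drug-metabolising Cyp3a enzyme of mouse liver and the remaining male call, stood at 2822, 1845 and 2080 FPKM in males and 632, 329 and 210 in females, opposite to its near copies. It was added after its values were seen. Members of the Cyp2b, Cyp2c, Cyp3a and Cyp4a families are close in sequence, and their separate values are uncertain for the same reason as those of the Mup genes.

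Sulfotransferases, which attach sulfate to steroids and bile acids and so make them soluble, gave several of the largest female differences. Sult2a1 stood at 588, 423 and 685 FPKM in females and at 0.08, 0.21 and 0.16 in males (log2 difference -8.92, SE 0.72, adjusted p = 1.8e-05). Sult2a2 and Sult2a3 followed, at 248 to 468 and 61.1 to 107 FPKM in females. Sult2a5 was listed at 0 in all 3 males and stood at 58.2, 51.5 and 60.3 FPKM in females. The 6 members Sult2a1 to Sult2a6 lie between 13623967 and 14254870 on chromosome 7, hold that whole span among tested genes, and were all higher in females by more than 1 log2. The gene 2810007J24Rik, on the same list and chromosome and named after its values were seen, was not called, at 446, 315 and 337 FPKM in males and 196, 318 and 246 in females (log2 difference 0.54, SE 0.27, adjusted p = 0.179). Sult3a1, on chromosome 10, stood at 52.0, 138 and 71.3 FPKM in females and at most 0.08 in males. Among 54 conjugating enzymes in all, 16 were called higher in females and 10 in males (13 and 13 with median-ratio scaling). Gstp1, a glutathione transferase of male liver named after its values were seen, stood at 1940, 2121 and 1525 FPKM in males and 282, 222 and 206 in females.

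Flavin monooxygenases, which oxidise amines and sulfides, gave 4 of the 5 female calls in a list of oxidases and hydrolases. Fmo2 stood at 19.9, 21.98 and 14.9 FPKM in females and 4.23, 1.90 and 4.67 in males, 5.25-fold higher in females (log2 difference -2.16, SE 0.31, adjusted p = 0.00125). Fmo4 was 3.52-fold higher in females. With the carboxylesterases, aldehyde oxidases and epoxide hydrolases, 5 of 22 genes were called higher in females and 6 in males (4 and 8 with median-ratio scaling). The male calls, named after their values were seen, were Ces3a, Aox1, Aox3, Ephx1, Ephx2 and another flavin monooxygenase, Fmo5. The call of Ephx1 was lost in 11 of the 24 alternatives, and that of Fmo5 without female 2 and without female 3. A1bg stood at 515, 984 and 829 FPKM in females and at 0.21, 0.33 and 0.63 in males. This plasma glycoprotein was the gene of the third largest female difference (log2 difference -9.09, SE 0.93, adjusted p = 0.000102).

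Some genes with large differences lay side by side. Within 100 kb of another gene of the same direction lay 35 of the 124 male genes (28.2%) and 62 of the 256 female genes (24.2%). The same share was not worked out for all tested genes, so these counts do not set clustering apart from gene density. Besides these Sult2a genes, runs of 3 were formed, among others, in females by Cyp2b13, Cyp2b9 and Cyp2a4 on chromosome 7, by Cyp2c68, Cyp2c40 and Cyp2c69 on chromosome 19, by Ugt1a9, Ugt1a5 and Ugt1a1 on chromosome 1 and by the acyl-CoA thioesterases Acot2, Acot4 and Acot3 on chromosome 12. In males such runs were Serpina1e, Serpina12 and Serpina4-ps1 on chromosome 12, Hsd3b5, Hsd3b2 and Hsd3b3 on chromosome 3 and Mup20, Mup3 and Mup21 on chromosome 4. Chromosome 19 had the largest share of its tested genes in the 2 sets (6.24% of 433), and chromosome 16 the smallest (1.38% of 362). Over all autosomes the male set made 1.11% and the female set 2.29% of the genes tested. Many neighbours here are copies of one another, so shared reads and shared position cannot be told apart. The Ugt1a members are alternative first exons of 1 locus.

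Counts over gene lists are read against the shares of all tested genes called, 2.28% higher in males and 11.0% higher in females (4.8% and 4.42% with median-ratio scaling). Of 33 tested genes of a list known to be male-biased in mouse liver, 30 were called higher in males and 3 did not pass (median 2.97 log2). Of 44 tested genes of the female list, 38 were called higher in females and 6 did not pass (median -3.07 log2). With median-ratio scaling the calls were 31 and 37, and with male 2 and female 1 both left out 24 and 35. These lists were compiled with results of these data known, so the counts describe the lists and are not independent evidence of a direction. Besides the genes above, C6, a component of the membrane attack complex of complement, stood at 84.2, 76.2 and 94.1 FPKM in males and 8.67, 6.10 and 7.87 in females, 11.2-fold higher in males. Hao2, a peroxisomal hydroxy acid oxidase, stood at 31.0, 34.1 and 37.9 FPKM in females and at 0.08, 0.25 and 0.25 in males.

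**Figure D3:**
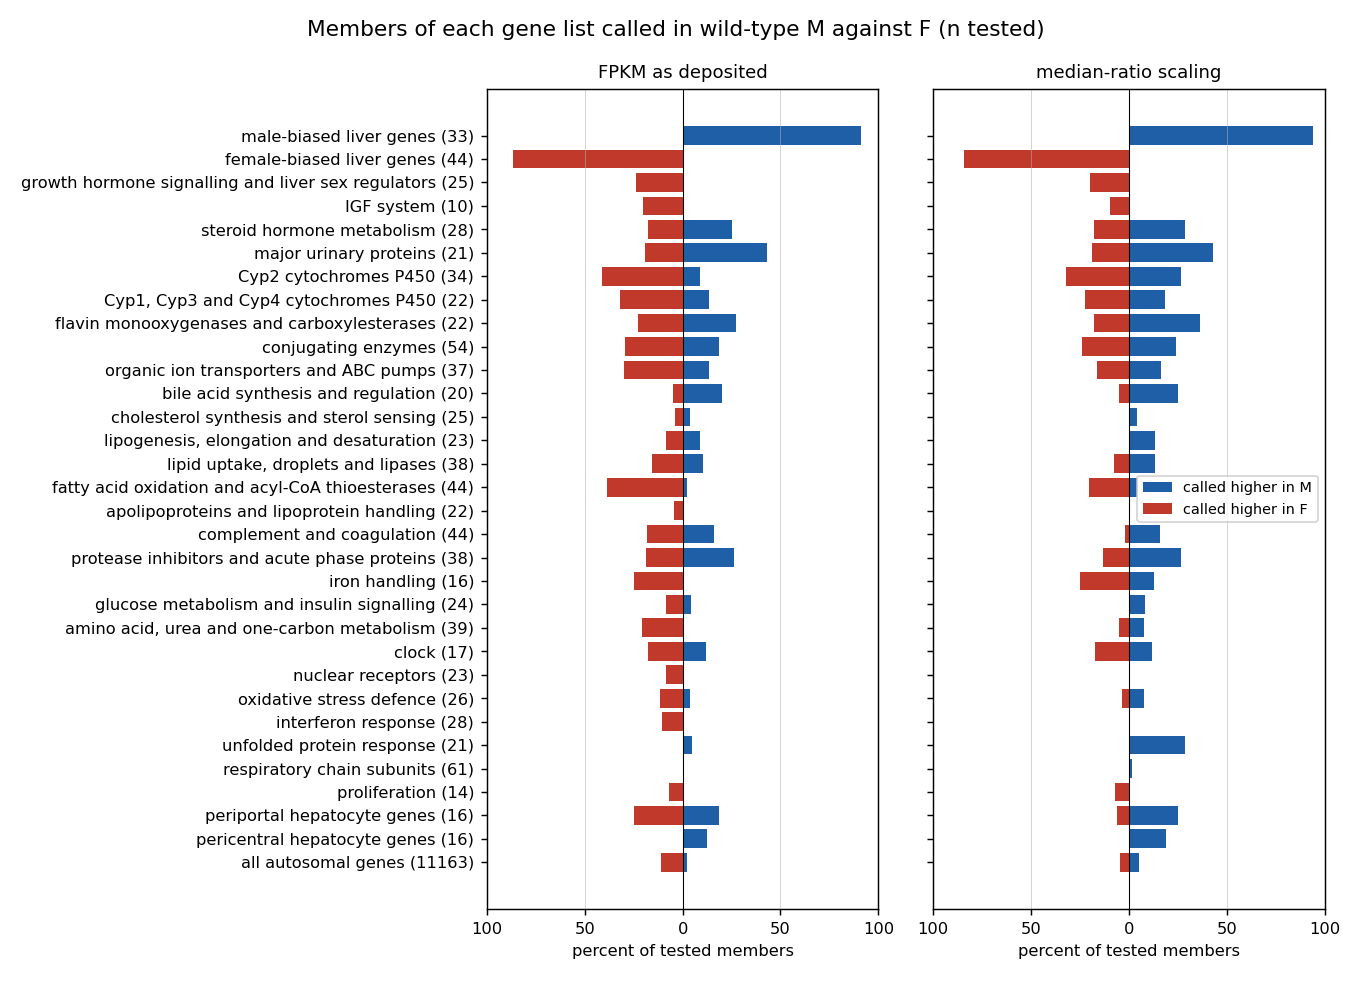
Share of the tested members of each gene list called higher in males (blue, to the right) or in females (red, to the left), with the FPKM as deposited (left panel) and with median-ratio scaling (right panel); the number tested is in brackets and the last row gives all 11163 autosomal genes. The 2 sex-biased lists fill 1 side in both panels, while female calls in fatty acid oxidation, complement and amino acid metabolism are fewer in the right panel.

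Among regulators of the programme, 6 of 25 tested genes were called, all higher in females, and 5 of these with median-ratio scaling. An unadjusted p under 0.05 in limma was found in 8 of the 25, all towards females. Of all 11163 tested genes, 3084 had one towards females and 575 towards males. Of the 6, 4 (Cux2, Trim24, Tox and Prlr) are also on the female list above, which was compiled with results of these data known. The others are Ghr and Nr1d1, which is given with the clock genes below. Cux2, the female-specific repressor of male genes, stood at 6.37, 14.9 and 5.78 FPKM in females and at 0.03, 0.02 and 0.04 in males (log2 difference -3.17, SE 0.38, adjusted p = 0.000405). Trim24, a ubiquitin ligase and cofactor of nuclear receptors, stood at 14.8, 18.8 and 18.2 against 2.67, 1.93 and 3.39 FPKM, and Tox, an HMG box factor, at 6.05, 7.38 and 6.16 against 1.27, 0.80 and 1.40. No female value of these 3 genes fell within the male range. The prolactin receptor Prlr stood at 166, 216 and 162 FPKM in females and 25.4, 13.1 and 31.9 in males, 7.74-fold higher in females (log2 difference -2.97, SE 0.30, adjusted p = 7.89e-05). The growth hormone receptor Ghr was at 287, 319 and 294 against 253, 222 and 221 FPKM (adjusted p = 0.0499). Its call was lost in 18 of the 24 alternatives, median-ratio scaling among them (log2 difference -0.11, adjusted p = 0.663).

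The transducers and direct feedback genes of growth hormone did not pass. Bcl6, the male-biased repressor, stood at 9.03, 2.74 and 27.2 FPKM in males and 3.89, 11.7 and 8.43 in females (adjusted p = 0.774). Cish, which is induced by STAT5, stood at 18.9, 12.5 and 1.05 against 4.58, 5.75 and 6.95, and Socs2 at 24.5, 12.1 and 4.92 against 8.90, 16 and 20.9. The male libraries spread over the whole female range in these 3 genes, so a sex difference was not detectable with 3 libraries a sex. Stat5b stood at 15.7, 6.90 and 14.4 in males and 14.62 to 21.2 in females, and Jak2 at 2.62 to 4.23 and 3.85 to 5.01. Onecut1, which codes for HNF6, stood at 12.9, 1.65 and 1.70 in males and 1.17 to 4.41 in females. Of 10 genes of the IGF system, through which growth hormone acts on growth, 2 were called higher in females, Igfbp5 (3.07-fold) and Igfbp4 (1.44-fold), and only Igfbp5 was with median-ratio scaling.

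Steroid metabolism had calls in both directions. Of 28 tested genes, 7 were called higher in males and 5 in females, with a median of 0.06 log2 (8 and 5 with median-ratio scaling). On the male side, with Hsd3b5, was Cyp7b1, the oxysterol 7-alpha-hydroxylase, at 129, 107 and 74.7 FPKM in males and 17.7, 18.2 and 17.2 in females, 5.85-fold higher. On the female side, with Sult2a1 and Sult2a2, was Serpina6, which codes for the plasma carrier of corticosterone, at 659, 719 and 457 FPKM in females and 168, 157 and 166 in males, 3.74-fold higher (log2 difference -1.87, SE 0.16, adjusted p = 3.38e-05). Cyp17a1, which makes androgen precursors in steroid-forming tissues, stood at 74.2, 110 and 69.0 FPKM in females and 2.91, 6.65 and 4.82 in males. The 5-alpha-reductase Srd5a1 was 3.11-fold higher in males, and both of these genes were named after their values were seen.

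Bile acid synthesis was higher in males at 4 of 20 genes and in females at 1. Cyp8b1, which sets the share of cholic acid, stood at 218, 234 and 291 FPKM in males and 70.1, 92.5 and 83.4 in females, a 3.02-fold difference (log2 difference 1.58, SE 0.15, adjusted p = 6.12e-05). Scp2, a peroxisomal thiolase and sterol carrier, was 2.04-fold and Cyp27a1, of the alternative pathway, 1.39-fold higher in males. The call of Cyp27a1 was lost without female 1 (adjusted p = 0.0663) and also without female 2. Klb, the co-receptor for the gut hormone FGF15, was 2.24-fold higher in females. The rate-limiting enzyme Cyp7a1, named as a reference, stood at 40.6, 22.7 and 91.2 FPKM in males and 63.0, 37.7 and 31.3 in females, and the sexes overlapped.

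Among 37 organic ion transporters, 11 were called higher in females and 5 in males, and 6 each with median-ratio scaling. Slc22a26, an organic anion transporter of female liver, stood at 80.3, 101 and 95.2 FPKM in females and 1.58, 0.38 and 1.88 in males, and Slc22a27 at 37.2, 38.2 and 46.7 against 1.79, 0.97 and 1.72. Slc22a29 was 7.38-fold higher in females at lower levels. Abcg2, the efflux pump for urate and drugs, went the other way, at 38.5, 29.9 and 33.3 FPKM in males and 10.5, 8.91 and 9.07 in females (log2 difference 1.73, SE 0.12, adjusted p = 7.94e-06).

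Fatty acid oxidation had more female than male calls. Of 44 tested genes, 17 were called higher in females, 1 in males and 26 did not pass (median -0.29 log2), but 9 and 2 with median-ratio scaling (median -0.03) and 10 and 0 without male 2 and female 1. Acot3, a peroxisomal acyl-CoA thioesterase, stood at 65.6, 137 and 83.2 FPKM in females and 3.05, 3.60 and 2.88 in males, 30.0-fold higher in females (log2 difference -4.46, SE 0.35, adjusted p = 1.57e-05). Abcd2, which imports fatty acids into peroxisomes, was 6.94-fold higher in females. Bdh1, which makes the ketone body 3-hydroxybutyrate, stood at 90.4, 97.7 and 86.6 FPKM in females and 51.9, 52.0 and 50.4 in males, a small but even difference of 1.78-fold. Each of these, and Hao2, was called with both scalings.

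Lipid uptake and storage gave 6 female and 4 male calls among 38 genes (3 and 5 with median-ratio scaling). The VLDL receptor Vldlr stood at 3.89, 3.46 and 3.83 FPKM in females and 0.41, 0.23 and 0.42 in males, 10.5-fold higher in females. Cd36, the fatty acid translocase, stood at 54.5, 47.2 and 64.8 against 22.4, 14.5 and 19.5 FPKM (log2 difference -1.52, SE 0.20, adjusted p = 0.000727), and hepatic lipase Lipc was 2.04-fold higher in females. Fitm1, which promotes lipid droplet formation, was 3.46-fold higher in males, at 38.5, 73.4 and 38.3 FPKM against 15.9, 16.7 and 10.7. Among 23 genes of lipogenesis, 2 were called higher in males, Elovl3 among them, and the desaturases Fads1 (1.53-fold) and Fads2 (1.74-fold) in females, the latter pair only with the FPKM as deposited. Cholesterol synthesis had 2 calls in 25 genes, Insig2 in males (2.14-fold) and Sc5d in females (1.71-fold), and apolipoproteins 1 in 22, Lcat in females (1.31-fold). Neither Sc5d nor Lcat was called with median-ratio scaling, and Insig2 was not called without female 1 or without female 2.

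Plasma proteins made by the liver changed on both sides. In complement and coagulation, 7 of 44 genes were called higher in males and 8 in females, but 7 and 1 with median-ratio scaling. The male calls were led by the terminal pathway, C6 (above) and C9 at 324, 312 and 308 FPKM against 63.3, 85.9 and 75.1, with Susd4, a complement regulator, 28.0-fold higher in males. C8a (12.3-fold) and C8b (5.87-fold), named after their values were seen, were called higher in males as well. Mbl2, the mannose-binding lectin that starts the lectin pathway, was 2.19-fold higher in females and was the female call kept under both scalings. In protease inhibitors and acute phase proteins, 10 of 38 were called higher in males and 7 in females (10 and 5 with median-ratio scaling).

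The acute phase and stress-responsive genes in that list varied between livers of 1 sex, and were named after their values were seen. Serum amyloid Saa1 stood at 218, 1106 and 709 FPKM in males and 64.5, 45.8 and 51.7 in females, and Saa2 at 75.9, 719 and 441 against 48.5, 37.2 and 44.4. Male 2 was the highest and male 1 the lowest male in both. The call of Saa2 (adjusted p = 0.0472) was lost with median-ratio scaling and in 9 of the 12 fits that left out 1 library, while that of Saa1 was kept in all of these. Metallothioneins, the metal-binding proteins induced by glucocorticoids, zinc and fasting, went the other way. Mt1 stood at 152, 335 and 242 FPKM in females and 5.96, 14.8 and 10.8 in males (log2 difference -4.41, SE 0.57, adjusted p = 0.000606), and Mt2 at 76.6, 216 and 104 against 2.27, 6.82 and 4.54.

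Clock genes differed between the sexes and between females. Nr1d1, the repressor REV-ERB-alpha, stood at 87.0, 97.9 and 31.6 FPKM in females and 1.15, 1.63 and 2.17 in males, 43.7-fold higher in females (log2 difference -4.65, SE 0.54, adjusted p = 0.00027). Its paralogue Nr1d2 was 5.21-fold higher in females. Dbp, a clock output factor named after its values were seen, stood at 71.6 and 90.8 FPKM in females 1 and 2, at 4.44 in female 3 and at 1.55 to 2.39 in males, and its call was lost in 5 of the 12 fits that left out 1 library. Cry1, a core repressor that peaks in another phase, was higher in males at 16.6, 10.6 and 13.8 FPKM against 1.79, 1.22 and 4.41. Female 3 lay nearest to the males in Nr1d1, Nr1d2, Dbp and Cry1. In all, 3 of 17 clock genes were called higher in females and 2 in males, with the same counts under median-ratio scaling. Time of collection, which sets the level of these genes, is not stated in any source used here, and its part in the difference was not tested.

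Iron handling and amino acid metabolism had female calls and no male ones with the FPKM as deposited. Hamp2, a hepcidin, stood at 1601, 1741 and 2579 FPKM in females and 238, 356 and 202 in males, 7.43-fold higher in females (log2 difference -2.90, SE 0.37, adjusted p = 0.000513). Slc40a1, the iron exporter ferroportin, was 1.81-fold, Hmox1, haem oxygenase, 2.61-fold and Bmp6, which induces hepcidin, 2.57-fold higher in females. Slc40a1 is also on the list of Kupffer cell markers, 9 of which were called higher in females, and their part in its difference was not tested. The 4 calls were among 16 genes, and median-ratio scaling kept 4 female calls and added 2 male ones. In amino acid, urea and one-carbon metabolism, 8 of 39 genes were called higher in females, of which median-ratio scaling left 2 while calling 3 higher in males. Agxt, which clears glyoxylate in peroxisomes, stood at 249, 241 and 286 FPKM in females and 89.7, 128 and 111 in males, and the glutamine transporter Slc38a3 was 2.69-fold higher in females. Both were called with either scaling.

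Housekeeping and stress lists are read beside the 13.3% of all tested genes called. None of 61 respiratory chain subunits was called by limma, with 3 at an unadjusted p under 0.05, all towards males, and 1 call, Cycs, with median-ratio scaling. In the unfolded protein response, the chaperone cofactor Creld2 was called in 21 genes (2.13-fold higher in males). With median-ratio scaling 6 were called, all higher in males, beside 4.8% of all tested genes. At an unadjusted p under 0.05 in limma, 7 of the 21 lay towards males, as did 575 of all 11163 tested genes. In OXR1A-/- livers 7 of the 21 were called higher in males, beside 1.61% of all tested genes. The call of Creld2 was lost in 12 of the 24 alternatives, including without any 1 of the 6 wild-type libraries. Nuclear receptors gave 2 calls in 23, Nr1h2 (1.60-fold) and Rxrb (1.37-fold) in females, and neither was called with median-ratio scaling. In glucose metabolism 1 of 24 genes was called higher in males and 2 in females, the latter, with Akt2 (1.40-fold), with the FPKM as deposited alone. Oxidative stress defence had 4 calls in 26, the selenium-binding protein Selenbp2 in males, at 215, 184 and 115 FPKM against 28.4, 33.7 and 22.6, and Hmox1, Txnrd2 (1.61-fold) and Tldc1 (1.63-fold) in females. Neither Txnrd2 nor Tldc1 was called with median-ratio scaling, which gave 2 male calls and 1 female call. Of 14 proliferation genes, cyclin D1 (Ccnd1) was called, 4.32-fold higher in females, with 6.76 to 14.3 FPKM against 1.90 to 2.97.

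Zonation genes, which mark hepatocytes near the portal or the central vein, gave mixed calls. Among 16 periportal genes 3 were called higher in males and 4 in females (4 and 1 with median-ratio scaling), and among 16 pericentral genes 2 in males. Ctsc, a lysosomal protease, was 3.48-fold higher in females, the phospholyase gene Agxt2l1 2.24-fold and the retinal dehydrogenase Aldh1a1 2.003-fold higher in males.

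Interferon-stimulated genes all lay on the female side of 0. All 28 tested had a negative difference (median -0.83 log2), 14 had an unadjusted p under 0.05, and 3 were called, Irf9 (1.76-fold), Oas1a (3.59-fold) and Ifit1 (3.45-fold). Of all 11163 tested genes, 8444 had a negative difference, 3084 an unadjusted p under 0.05 towards females, and 1228 (11.0%) were called higher in females. None of the 28 was called with median-ratio scaling, where the median was -0.68 log2. The summed FPKM of the 28 was 4189 in OXR1A-/- male 2 and 344 to 785 in the other libraries. That library entered the estimate of the spread, and without it all wild-type calls numbered 2013 against 1483. Its part in the number of calls among the 28 was not tested. Ifit1 stood at 5.94, 5.53 and 5.45 FPKM in females and 1.87, 1.58 and 1.46 in males, with no overlap (log2 difference -1.33, SE 0.40, adjusted p = 0.049).

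Markers of endothelial, Kupffer and stellate cells were called higher in females and those of hepatocytes were not. Of 10 hepatocyte markers none was called by limma (1 had an unadjusted p under 0.05), and their summed FPKM lay at 66170 to 74761 in males and 65253 to 72507 in females, high in every library. Of 15 markers of sinusoidal endothelium, 13 were called higher in females (12 with median-ratio scaling, 9 without male 2 and female 1), and the summed level was 131 to 151 FPKM in males and 254 to 293 in females. Of 14 Kupffer cell and macrophage markers, 9 were called higher in females (8 and 5), with sums of 226 to 382 and 520 to 778 FPKM. Stellate cell and matrix markers had 6 calls in 14 (2 and 2), with sums of 170 to 184 and 282 to 302 FPKM. The sums of these 3 lists did not overlap between the sexes, and no list had a member called higher in males (unadjusted p under 0.05 towards females in 15, 13 and 10 members, towards males in 0 of each). Lack of overlap was not particular to them, as 40.1% of all single genes tested did not overlap. At low levels, the sums of T and NK cell, neutrophil and gonad and mammary markers were also higher in all females. That of exocrine pancreas markers was higher in all males.

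The endothelial gene Oit3 stood at 14.5, 15.2 and 16.2 FPKM in females and 7.73, 6.89 and 6.50 in males (log2 difference -1.02, SE 0.11, adjusted p = 0.000151). Gpr182, a receptor of sinusoidal endothelium, was 2.06-fold and VE-cadherin (Cdh5) 2.55-fold higher in females. Among Kupffer cell genes, the secreted protein Cd5l stood at 73.2, 58.1 and 80.7 FPKM in females and 18.8, 27.5 and 26.2 in males, and the lectin Clec4f was 2.12-fold higher in females. Of the stellate cell genes, Ecm1 (1.87-fold) and Colec11 (1.88-fold) were called with both scalings, and the retinol esterifying enzyme Lrat and Reln (both called as deposited) were not called with median-ratio scaling. In bulk RNA, more cells of a type and more RNA per cell cannot be told apart.

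Defining genes of T cells (Cd3e, Cd8a), neutrophils (Mpo) and bile duct (Krt7, Cftr) lay under the filter. Of the members tested, 2 of 4 neutrophil markers were called higher in females (all 4 had an unadjusted p under 0.05 in that direction), 1 of 6 T and NK cell markers in each direction, and none of 7 B cell, 7 MHC class II and 6 bile duct markers by limma (unadjusted p under 0.05 in 0, 0 and 1). Summed levels include the members under the filter. Those of B cell markers were 10.95 to 29.5 FPKM in males and 10.8 to 20.6 in females, and those of T and NK cells 5.21 to 10.7 and 10.8 to 15.9. Those of neutrophils were 6.25 to 10.44 and 14.1 to 18.02, and those of MHC class II genes 100 to 237 and 183 to 303. Of 4 red cell and 1 exocrine pancreas markers tested none was called by limma (unadjusted p under 0.05 in 0 and 1), and 1 of 2 fat cell markers was called higher in males. Summed levels of red cell markers were 529 to 748 FPKM in males and 512 to 1510 in females. Of 7 markers of gonad and mammary tissue in the table, all lay under the filter. The part of other cell types in the differences above was not tested.

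**Figure D4:**
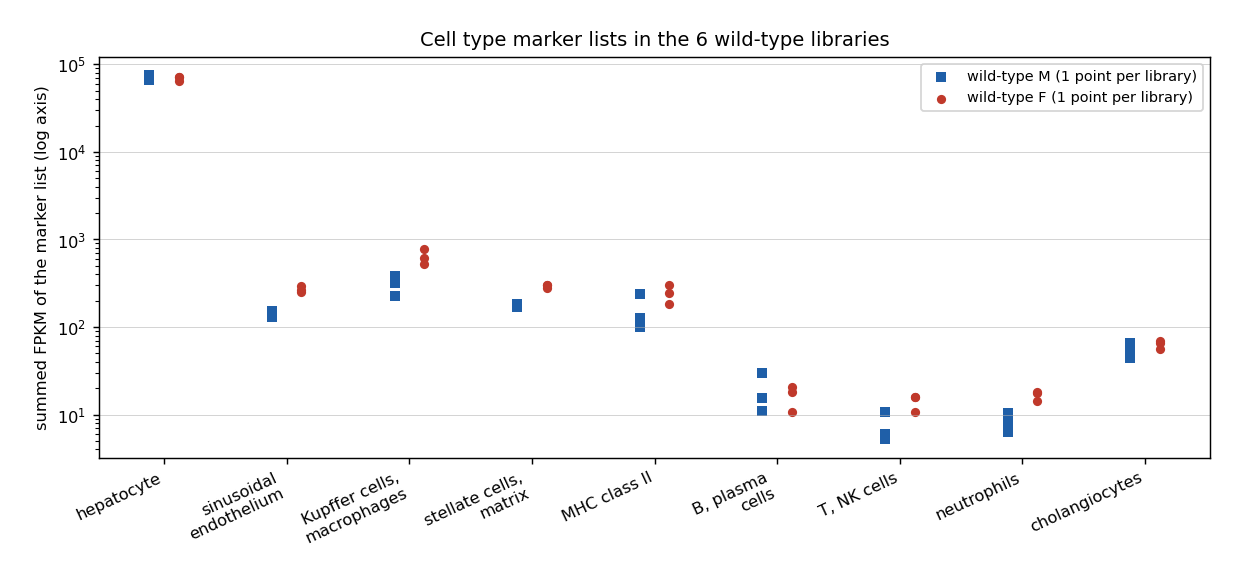
Summed FPKM (log axis) of the autosomal markers of 9 cell type lists, those under the filter included, in each wild-type library, males as squares and females as circles. Hepatocyte sums lie close together, while the endothelial, Kupffer cell and stellate cell sums of the 3 females lie above those of the 3 males.

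The same sex comparison in OXR1A-/- livers, which shares no sample with the wild-type one, gave 405 called genes (3.63%), 180 higher in males (1.61%) and 225 higher in females (2.02%). Of the 124 large male genes, 122 kept their sign and 70 were called the same way there, and of the 256 large female genes, 237 and 93. None was called the other way by limma (0 also at an unadjusted p under 0.05). The count of 405 was 226 without OXR1A-/- male 1, 190, 253 and 238 without OXR1A-/- females 1, 2 and 3, and 608 without wild-type male 2. Differences were smaller, with a median of 1.14 log2 against 1.59 in the male genes and -0.68 against -1.31 in the female genes. The genes were chosen for a large difference in wild type, so the wild-type medians describe that choice and the pair of medians is no test of the genotypes. Kupffer cell markers had no call there (1 of 14 at an unadjusted p under 0.05), and 1 of 15 endothelial markers was called. The summed FPKM of the Kupffer cell markers was 452, 1094 and 596 in OXR1A-/- males 1 to 3. In OXR1A-/- females it was 602, 648 and 844, so OXR1A-/- male 2 alone lay above the lowest female. The part of that library in the missing calls was not tested.

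A difference between the genotypes was itself called for 3 genes (0.0269%), Cyp2b9, Slc22a27 and Selenbp2, with 1017 genes at an unadjusted p under 0.05. Cyp2b9 was at 385, 298 and 447 FPKM in OXR1A-/- females and 108, 131 and 38.1 in OXR1A-/- males, a sex difference of -2.17 log2 against -7.98 in wild type (interaction -5.80, SE 0.50, adjusted p = 0.00122). Of the OXR1A-/- females, 1 lay within the wild-type female range and the other two below it, while all OXR1A-/- males lay far above the wild-type males. Selenbp2 was at 17.7, 17.0 and 17.5 FPKM in OXR1A-/- males and 13.9, 11.8 and 13.8 in females, and Slc22a27 at 8.53, 16.4 and 8.39 against 38.4, 29.4 and 38.9. The adjusted p was 0.0436 for both. Of 23 alternative settings, Cyp2b9 was called in 23, Selenbp2 in 10 and Slc22a27 in 9. The count of 3 was 22 without OXR1A-/- male 3, 5 without OXR1A-/- male 2, and 1 without wild-type male 1 or 2, any wild-type female, OXR1A-/- male 1 or any OXR1A-/- female. Hsd3b5 (interaction 4.93 log2, adjusted p = 0.0641), Cyp2a4 (-5.08, 0.0702) and Cd36 (-1.77, 0.0641) did not pass.

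**Figure D5:**
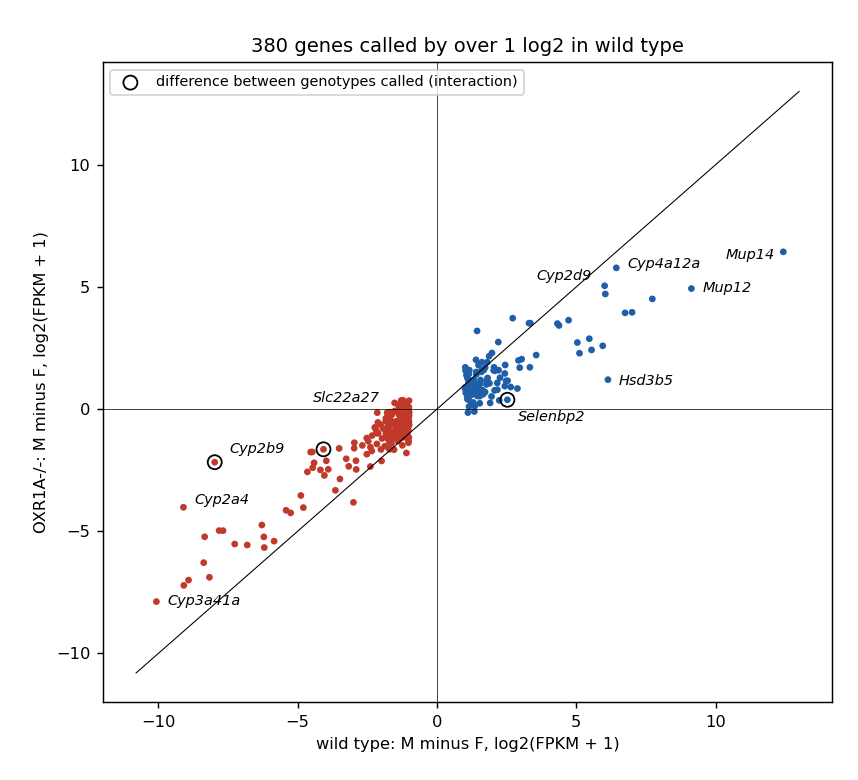
Sex difference (M minus F, log2(FPKM + 1)) in wild type (x axis) and in OXR1A-/- (y axis) for the 124 and 256 genes called by more than 1 log2 in wild type, with the line of equal values. Most points lie between that line and 0 on the y axis, and rings mark Cyp2b9, Slc22a27 and Selenbp2, whose difference between genotypes was called.

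Some properties of the libraries touch these values. Depth is unknown, since FPKM carry no read totals, and no counting intervals are given. FPKM sums were 538286 to 569975 in the wild-type libraries other than male 2, which had 667434, and long transcripts were scarcer in male 2 (the slope of its log2 deviation against log2 length was -0.191, and lay between -0.067 and 0.093 elsewhere). The first principal component held 46.1% of the variance and separated the sexes. Oxr1 lay between 12.07 and 25 FPKM over the 12 libraries, a total over its isoforms that does not check the OXR1A-/- label. Xist and 4 Y-linked genes followed the labels, with traces of Y-linked genes in female 1 at 4.60% to 8.90% of the male mean. In that library Cyp4a12a, Elovl3, Cyp2d9 and Nat8 were at 2.71% to 4.12% of the male mean, Mup14 was listed at 0 and Hsd3b5 was at 0.121%. Of the 124 male genes, female 1 was the highest female in 58, female 2 in 33 and female 3 in 33. With male 2 and female 1 both left out, 103 and 155 genes differed by more than 1 log2. The count of all calls was 685 without female 1, 648 without female 2 and 943 without female 3, mainly through female-biased genes (517, 495 and 712, and 761 without male 2), while the male count was 168 without female 1 and 153 without female 2.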

How the data were processed

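Total RNA was isolated from liver with a Qiagen kit, mRNA was taken up by oligo(dT) beads, reverse transcribed from random primers, and amplified products were circularised as single strands, per the labels' protocols. The authors deposited FPKM for 18560 genes in 12 libraries, per the file headers; TopHat2 and mm10 are named in the submitters' processing notes with no role, and the sources used here name no quantifier, annotation or filter. Values of log2(FPKM + 1) of 11514 genes were fitted with limma 3.58.1 (R 4.3.3), with 1 mean per group over 12 libraries, a variance trend and two-sided tests, Benjamini-Hochberg adjusted over all of them. Errors are standard errors (SE), folds are ratios of mean FPKM, and such log2 differences understate those of low genes. The fit was tested on simulated data.

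The members and the 44 gene lists were chosen with earlier results of these data known. Named genes are the 15 largest differences each way without overlap, the growth hormone list, up to 4 members of smallest p per list, sex-linked genes as a check, and genes called in the interaction. Genes said to be named after their values were seen fall outside this rule. Promoters are from RefSeq. Alternatives changed the pseudocount, filter, scaling, model and libraries. A few genes are not reported here.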

Additional observations from a re-analysis of the deposited data

Results flagged for a closer look

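The sex difference itself differed between wild-type and OXR1A-/- livers for 3 genes, by the interaction term of the fit across all genes (limma, adjusted p under 0.05). The female excess of Cyp2b9 was larger in wild type (a difference of -5.8 log2, M minus F). That of Slc22a27 was larger in wild type as well (-2.43), and the male excess of Selenbp2 was larger in wild type (2.15).

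Sex-linked genes, which the autosomal comparison does not use, gave a signal in libraries of the other sex. The Y-linked gene Eif2s3y stood at 1.89 FPKM in wild-type female 1 and 0.85 in OXR1A-/- female 1, against 0.00 to 0.10 in the other females. Xist, the RNA of the inactive X chromosome, stood at 0.82 FPKM in OXR1A-/- male 3, against 0.04 to 0.08 in the other males. What gave these traces was not tested. Groups of 3 samples were not tested for outlying values.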

How the results depend on the processing

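Of the 137 called genes named in the text, 102 were called under each of the 24 alternatives that tested them, and 0 changed sign under any. Most were named for a large difference or small p in these data, so their stability describes that choice. Of all 1483 wild-type calls, 747 were called the same way with median-ratio scaling. With wild-type male 2 and female 1 both left out, 471 were. The counts moved as well. All wild-type calls (1483) were 873 with a mean of at least 5 FPKM and 496 with wild-type male 2 and female 1 both left out. Male calls (255) were 536 with median-ratio scaling, 570 with quantile normalization and 149 with both libraries out, and female calls (1228) were 693 with the mean filter, 493, 483 and 347. Female differences over 1 log2 (256) were 514 with a pseudocount of 0.1, 145, 151 and 155. The median difference was -0.0008 with median-ratio scaling and 0.011 with quantile normalization. The OXR1A-/- count (405) was 644 with array weights. The interaction count (3) was 5 with the pseudocount, 10 with array weights, 1 with the length trend removed and 1 with both libraries out. The causes were not tested.

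Leaving out 1 library at a time gave 648 to 2013 wild-type calls, 153 to 293 male and 495 to 1720 female calls, 108 to 130 and 190 to 307 over 1 log2, 190 to 608 in OXR1A-/- and 1 to 22 in the interaction. Uncalled genes that changed sign were Bcl6 (-0.029 with array weights, -0.45 to 1.01 over libraries left out), Cyp7a1 (-0.22 with array weights, -0.46 to 0.52 over libraries), Socs2 (0.62 with array weights, -0.81 to 0.24), Cish (-0.20 with both libraries out, -0.35 to 1.29) and Onecut1 (-0.41 to 0.78).

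With the replicate number as a block, 1141 genes were called, 1107 of them also called the same way without it, and the interaction count was 5. The labels do not say whether the numbers pair the samples. Same-numbered males and females had correlations of -0.128, -0.291 and -0.15 of their deviations. Deviations from a mean of 3 libraries are not independent of each other, so these values cannot decide whether samples are paired. Traces of the Y-linked Eif2s3y were seen in female 1 of both genotypes. Depth is unknown, so what it limits cannot be given.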
